A study of Mus musculus with 8 samples.

Results

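Myc, its relative Mycn, their obligate partner Max and 5 other genes of the same dimer network (Mxd4, Mxi1, Mnt, Mlx and Mga) were followed in single hematopoietic stem cells (HSCs) of mice with and without deletion of the gene Med23. Its product belongs to Mediator, the complex that links transcription factors to RNA polymerase II. All 8 genes had a row in the expression table, which held 10720 genes. They were taken by name, but the set was chosen by values of these data: Myc was lower in the cells labelled KO while other immediate early genes were higher there. The KO over WT ratio of Myc is therefore given below as a description and supports nothing. The same holds for the direction of the immediate early genes.

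The cells came from bone marrow of adult C57BL/6 mice, were sorted as lineage-negative Sca-1+ Kit+ (LSK) CD150+ CD34- CD48- cells and were picked by hand, giving 304 WT and 282 KO cells from 4 WT and 4 KO libraries. By the study's methods, KO mice were Mx1-cre+ Med23 L/L and received poly(I:C), and WT mice were Mx1-cre- Med23 L/L littermates, so both groups carried the floxed alleles. Mx1-cre is switched on by interferon in many cell types and is not restricted to HSCs. Whether the WT mice of this experiment received poly(I:C), and the time between injection and sorting, are not given in the sources used here. The column names give the genotype of a cell but not its library or mouse, so each genotype is 1 pool of cells. No value below has a replicate check, no test between genotypes was possible, and every interval covers counting error only.

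Myc is a transcription factor that binds DNA as a dimer with Max, most often at the E-box CACGTG, and raises transcription of genes for ribosome assembly, metabolism and the cell cycle. Mxd proteins, Mxi1 and Mnt also pair with Max, recruit Sin3 and histone deacetylases, and repress many of the same genes. Mlx is an alternative partner for some Mxd proteins, for Mnt and for the glucose-sensing Mondo factors, while Mga pairs with Max inside a variant Polycomb complex. In HSCs, Myc and Mycn are known to be partly interchangeable, and Myc activity is associated with leaving the stem cell niche and differentiating.

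The E-box is the DNA element shared by this network, so the promoters of the members were searched for it. RefSeq promoters of the GRCm38.p6 build (250 bases before to 50 after each annotated start) were found for 7 of the 8 genes, with 9 promoters in all, 3 of them for Mxi1. Myc itself had no promoter entry, so its promoter was not searched. CACGTG, which reads the same on both strands, was present in 4 of the 9 promoters (44.4%), those of Mxd4, Mnt, Mlx and Max. Of all 32851 promoters of the same length, 7.15% held it. The stretches around these E-boxes are shown because they place the binding element of the Myc and Max dimer in the promoter windows of 4 genes of this network. Capitals mark the E-box, each sequence is written on the strand of its gene, and the window is cut 30 bases on either side of the motif or 30 bases after the start.
Mxd4, minus strand, chr5:34187894-34187959: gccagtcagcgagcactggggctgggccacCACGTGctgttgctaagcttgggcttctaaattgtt
Mnt, plus strand, chr11:74830771-74830836: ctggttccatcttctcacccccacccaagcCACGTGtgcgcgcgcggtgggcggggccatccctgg
Mlx, plus strand, chr11:101087220-101087285: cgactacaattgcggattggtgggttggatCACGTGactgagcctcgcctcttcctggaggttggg
Max, minus strand, chr12:76962219-76962281: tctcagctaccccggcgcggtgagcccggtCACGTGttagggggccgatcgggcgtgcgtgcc

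The first base of the motif lay 219 bases before the annotated start in Mxd4, 123 in Mnt, 40 in Mlx and 3 in Max. The windows of Mycn, Mga and Mxi1 did not hold these letters. A match is a description of sequence only, and the expression table was made on another build, so it was joined by gene symbol and not by position. Among genes on 4 lists of known Myc targets, 16 of 77 promoters (20.8%) held the E-box, and among immediate early genes 21.4% of promoters did. For the 4 members with an E-box, the KO over WT log2 ratios described below were 0.45 for Mnt, -0.36 for Mxd4, 0.10 for Mlx and -0.01 for Max.

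The values behind these statements are molecule counts. Each cDNA carried a unique molecular identifier (UMI), and the deposited log2 values were turned back into UMIs per cell. Cells with at least 2000 genes and 20000 UMIs over the genes of the table were kept, which left 259 of 304 WT cells and 234 of 282 KO cells. Their UMIs ranged from 20038 to 496293 per WT cell (median 59649) and from 20027 to 467384 per KO cell (median 50281). Levels are UMIs per 1000000 UMIs of the pool (CPM), with exact Poisson intervals of 95%, and ratios are KO over WT on the log2 scale. One UMI is counted per molecule whatever the transcript's length, but capture can differ between genes, which limits the comparison of levels between genes.

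Some features of the pools bear on every ratio. For the deleted gene, 122 Med23 UMIs in 47 WT cells stood against 117 in 27 KO cells, a log2 ratio of 0.35 (-0.03 to 0.73). Its pooled level was thus no lower under the KO label, although fewer cells held it there (27 of 234 against 47 of 259, before thinning). The study reports efficient ablation of Med23 after poly(I:C). WT and KO are used here as names of the labels. Where in the transcript the Med23 UMIs lay relative to the floxed exon is not recorded in the table. Transcripts of oocytes were high in part of the WT pool, and all 17 oocyte genes with a row, of 18 listed, were lower in KO. Only genes with an average above 0.2 over all cells had a row, and genes such as Khdc3 (3925 WT and 19 KO UMIs) passed through WT cells. That all 17 were lower was thus partly fixed by this limit. The list summed to 2192 CPM in WT and 125 CPM in KO. Per cell it ran from 0 to 46284 CPM in WT and from 0 to 1453 in KO. Above 1000 CPM stood 63 WT cells and 2 KO cells, and the ratio without these cells is given for each member and, of the other genes named, where it differs from the main one by more than 1.5-fold or ends or makes a call. All 12 genes of an HSC list were detected in both pools, from 132 UMIs upwards, with a median ratio of -0.05. Past 1.5-fold, 2 were lower and 3 higher (16.7% and 25%, against 15.5% and 17.2% of all genes). The lowest was Slamf1, which encodes the sorting marker CD150, at -2.26 (837 and 132 UMIs), before Hlf at -0.68 and Ly6a at -0.53. Highest were Mecom at 1.135, Hoxa9 at 0.60 and Meis1 at 0.59. Without the cells high in oocyte transcripts Hoxa9 was at 0.56 and Meis1 at 0.50, under 1.5-fold. Of 20 genes of the G2 and M phases, 13 were lower past 1.5-fold (65%, against 15.5% of all genes) and none higher (against 17.2%).

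Myc differed most of the 8 genes. WT cells held 2431 Myc UMIs and KO cells 710, or 113 CPM (109 to 118) and 43.9 CPM (40.7 to 47.2). The ratio was -1.37 (-1.49 to -1.25), that is 2.58-fold lower in KO, and -1.46 without the cells high in oocyte transcripts. Across single cells Myc ran from 0 to 800 CPM in WT with a median of 50.9, and from 0 to 404 CPM in KO with a median of 0. The ranges of single cells overlapped widely, and cells without a Myc UMI were found in both genotypes. By level, Myc stood at rank 1564 of 10720 genes in WT and at rank 3886 in KO.

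Both the number of cells with Myc and the amount per positive cell were lower in the KO pool. After each cell was thinned at random to 20000 UMIs, 56.4% of WT cells (exact binomial interval 50.1 to 62.5) and 35.0% of KO cells (28.9 to 41.5) had a Myc UMI, a difference of -21.3 percentage points. Without thinning the shares were 69.1% and 43.6%. The positive cells held a median of 9 Myc UMIs in WT and 4 in KO before thinning, and a median of 108 and 66.4 CPM. At the upper end of the distribution, 25.5% of WT cells (20.3 to 31.2) and 5.98% of KO cells (3.31 to 9.84) held 4 or more Myc UMIs at equal depth. The shares with exactly 1 UMI were close, 16.2% in WT and 15.0% in KO. The sort left no cell type that should lack Myc, so the share that free RNA alone would give was not measured.

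**Figure D1:**
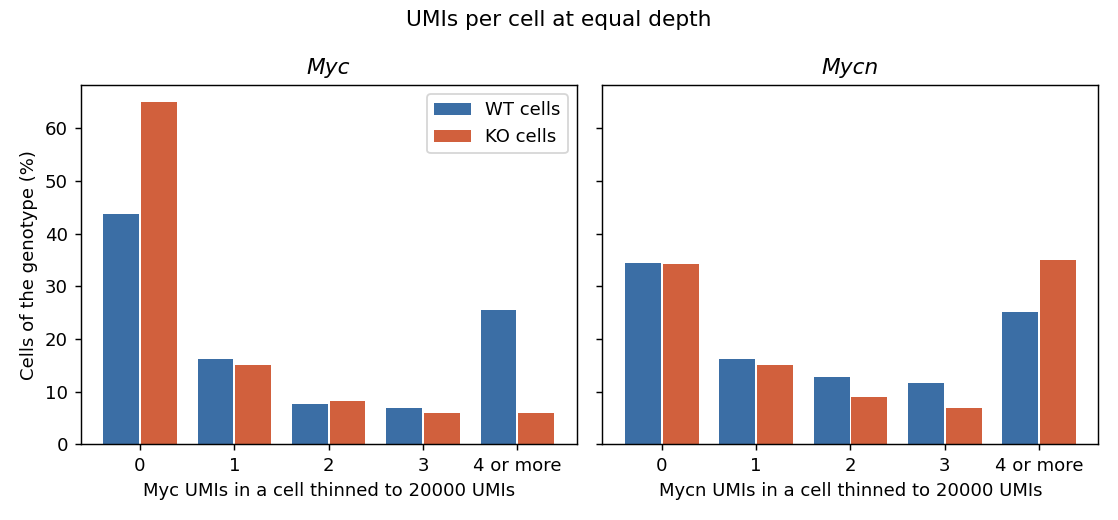
Percent of WT (blue) and KO (orange) cells with 0, 1, 2, 3 or at least 4 UMIs of Myc (left) and Mycn (right), each cell thinned to 20000 UMIs (259 WT and 234 KO cells). For Myc the KO cells were more often at 0 (65.0% against 43.6%) and less often at 4 or more, while for Mycn the shares at 0 were nearly equal (34.2% and 34.4%).

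The difference in Myc was present at every depth and in cells with few and with many mitotic transcripts. With the kept cells ordered by depth and divided into 3 parts, from shallow to deep, Myc was at 101, 131 and 110 CPM in WT and at 34.5, 43.7 and 46.5 CPM in KO. The kept cells were also divided at their median of 3 UMIs from the G2 and M list per thinned cell. Among cells at or below it, Myc was at 113 CPM in 110 WT cells and 44.3 CPM in 143 KO cells, and among those above it at 114 CPM in 149 WT cells and 43.3 CPM in 91 KO cells. Within a genotype, the Myc levels on both sides of this division by mitotic transcripts thus differed by less than their counting intervals. In the 63 WT cells high in oocyte transcripts Myc was at 89.0 CPM, against 121 CPM in the other WT cells.

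Mycn, the paralog with the same DNA element and partner, was at nearly the same level in both pools. It had 3036 and 2344 UMIs, or 141 CPM (136 to 146) in WT and 145 CPM (139 to 151) in KO, with a ratio of 0.04 (-0.04 to 0.11), and -0.04 without the cells high in oocyte transcripts. Its share of cells at equal depth was 65.6% and 65.8%. Cells with 4 or more Mycn UMIs were 25.1% of WT (19.9 to 30.8) and 35.0% of KO cells (28.9 to 41.5), so the upper end of Mycn was not lower in KO. Mycn was the highest of the 8 members in both pools, and the gap to Myc was 141 against 113 CPM in WT and 145 against 43.9 CPM in KO. Myc and Mycn together were at 255 CPM in WT and 189 CPM in KO, a ratio of -0.43 (-0.50 to -0.37), and the part of this sum that was Myc was 44.5% in WT and 23.3% in KO. A UMI of either gene was seen in 83.8% of WT cells (78.7 to 88.1) and 76.5% of KO cells (70.5 to 81.8).

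Mycn was about as frequent in cells with Myc as in cells without it. Among WT cells with Myc at equal depth, 67.8% had Mycn (59.6 to 75.3), and among WT cells without Myc, 62.8% did (53.2 to 71.7). In KO the shares were 69.5% (58.4 to 79.2) and 63.8% (55.6 to 71.4). The intervals overlapped in both genotypes, and a difference of a few percentage points was not detectable with these numbers of cells. A similar overlap was seen for Max, Mxi1, Mnt, Mlx and Mga in both genotypes and for Mxd4 in KO. Mxd4 in WT was in 14.4% of cells with Myc (9.13 to 21.1) and 5.31% of those without (1.97 to 11.2), also with overlapping intervals. Over all 28 pairs of members, Spearman's rho across thinned cells ran from -0.08 to 0.14 in 259 WT cells and from -0.11 to 0.12 in 234 KO cells, which in sparse counts is no finding.

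Max, without which Myc and Mycn do not bind DNA, was at nearly the same level in both pools. It had 1548 and 1160 UMIs, or 72.1 CPM (68.5 to 75.8) in WT and 71.7 CPM (67.6 to 75.9) in KO, a ratio of -0.01 (-0.12 to 0.10), and -0.09 without the cells high in oocyte transcripts. Single cells ran from 0 to 449 CPM in WT (median 21.8) and from 0 to 769 CPM in KO (median 32.1). A Max UMI was present in 44.0% of WT cells (37.9 to 50.3) and 47.4% of KO cells (40.9 to 54.0) at equal depth. Max was below the sum of Myc and Mycn in both pools, 72.1 against 255 CPM in WT and 71.7 against 189 CPM in KO.

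**Figure D2:**
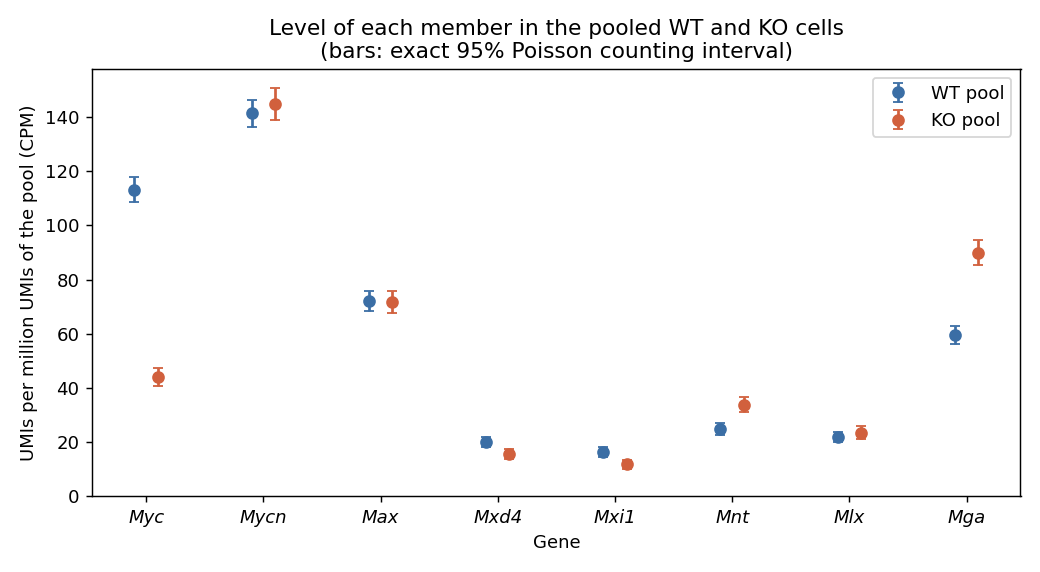
Level of each of the 8 members in UMIs per 1000000 UMIs (CPM, linear axis from 0) in the WT pool (blue) and the KO pool (orange), with exact Poisson intervals of 95%. Myc lies at 113 in WT and 43.9 in KO and Mga at 59.6 and 89.9, while the points of Mycn and of Max nearly coincide.

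The repressors that share Max had ratios on both sides of 0. Their summed level over the pools was nearly equal. The share of cells with any of them at equal depth was higher in KO, with overlapping intervals. Mxd4 had 427 UMIs in 36 WT cells and 251 UMIs in 41 KO cells, or 19.9 CPM (18.0 to 21.9) and 15.5 CPM (13.6 to 17.6), a ratio of -0.36 (-0.59 to -0.13). The share of cells with Mxd4 at equal depth went the other way, 10.4% in WT and 12.8% in KO, with overlapping intervals, and 10 cells held 74.5% of its WT UMIs and 70.9% of its KO UMIs. In the cells with few mitotic transcripts its ratio was 0.42, and without the cells high in oocyte transcripts it was -0.55, so no direction is given for Mxd4. Mxi1 had 350 UMIs in 47 WT cells and 190 in 28 KO cells, or 16.3 CPM (14.6 to 18.1) and 11.7 CPM (10.1 to 13.5), a ratio of -0.47 (-0.74 to -0.21). Its shares at equal depth were 10.8% (7.30 to 15.2) and 8.12% (4.96 to 12.4), and its ratio was -0.02 in the cells with few mitotic transcripts and -0.68, past 1.5-fold, without the cells high in oocyte transcripts.

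Mnt, the most widely expressed antagonist of Myc, was higher in the KO pool but not past 1.5-fold. It had 531 UMIs in 48 WT cells and 546 UMIs in 59 KO cells, or 24.7 CPM (22.7 to 26.9) and 33.7 CPM (31.0 to 36.7), a ratio of 0.45 (0.27 to 0.62). The shares at equal depth were 12.0% (8.28 to 16.6) and 18.4% (13.6 to 23.9), whose intervals overlapped. In the cells with few mitotic transcripts, the Mnt ratio was -0.15, so its direction was not the same in that part of the cells; without the cells high in oocyte transcripts it was 0.28. Mxd4, Mxi1 and Mnt together were at 60.9 CPM in WT and 61.0 CPM in KO, a ratio of 0.00 (-0.12 to 0.12). At equal depth, a UMI of any of these 3 genes was seen in 29.0% of WT cells (23.5 to 34.9) and 35.0% of KO cells (28.9 to 41.5). With Mxd1 and Mxd3, repressors of the same family that are not members, the sums were 84.1 and 86.3 CPM. The shares of cells were then 35.9% in WT (30.1 to 42.1) and 47.9% in KO (41.3 to 54.5), with intervals that overlapped narrowly. The near equality held for the pooled level. For the shares no difference is read, as cells are not replicates.

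Mlx was low in both pools and its ratio rested on few cells. It had 468 UMIs in 55 WT cells and 377 UMIs in 47 KO cells, or 21.8 CPM (19.9 to 23.9) and 23.3 CPM (21.0 to 25.8), a ratio of 0.10 (-0.10 to 0.30). A single WT cell held 181 of the 468 WT UMIs. The ratio was -0.26 without the cells high in oocyte transcripts and 0.92 after thinning, so no direction is given for Mlx. The shares at equal depth were 14.3% (10.3 to 19.1) and 17.5% (12.9 to 23.0).

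Mga was the member with the highest ratio. It had 1280 UMIs in WT and 1455 in KO, or 59.6 CPM (56.4 to 63.0) and 89.9 CPM (85.4 to 94.7), a ratio of 0.59 (0.48 to 0.70), which is 1.51-fold and just past 1.5-fold. Single cells ran from 0 to 1449 CPM in WT (median 12.2) and from 0 to 1338 CPM in KO (median 24.9). A Mga UMI was present in 42.5% of WT cells (36.4 to 48.7) and 50.9% of KO cells (44.3 to 57.4) at equal depth. The median positive cell held 88.5 CPM in WT and 88.0 CPM in KO, and 10 cells held 32.5% and 39.9% of the UMIs. Without the cells high in oocyte transcripts the ratio was 0.69, and on the study's normalized values, where the median of all genes was -0.14, it was 0.24, under 1.5-fold.

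**Figure D3:**
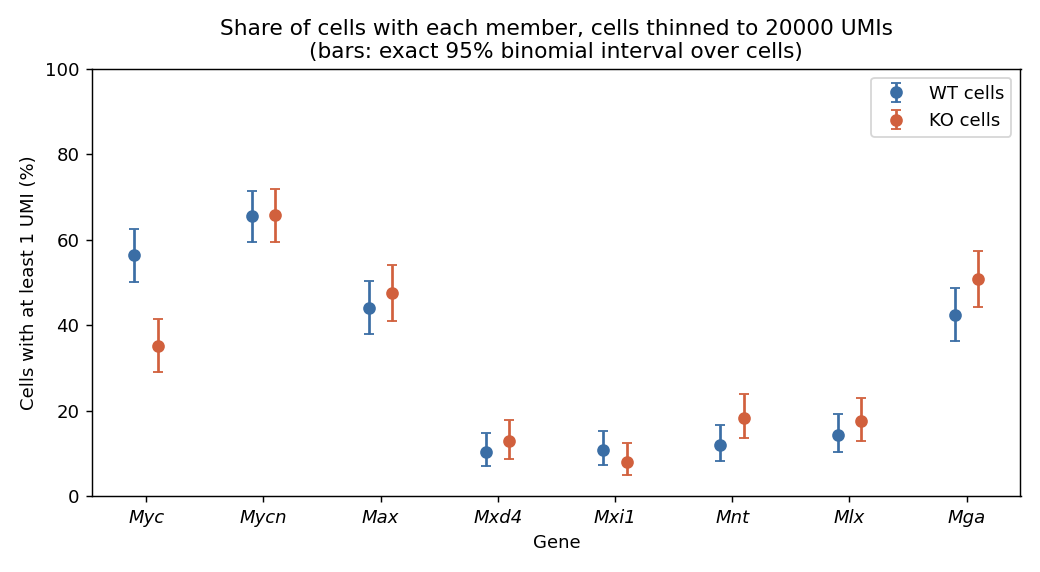
Percent of WT (blue) and KO (orange) cells with at least 1 UMI of each member after thinning to 20000 UMIs per cell, with exact binomial intervals of 95% over cells. Myc is the member whose intervals (50.1 to 62.5 and 28.9 to 41.5) do not overlap, but it was chosen by this contrast and cells are not replicates, so this is no test. Mycn is at 65.6% and 65.8%.

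Past 1.5-fold stood 1 of the 8 members lower in KO (Myc) and 1 higher (Mga). Of all 10720 genes, 15.5% were lower and 17.2% higher past 1.5-fold, so 1 of 8 each way (12.5%) was below the share of all genes; as Myc was chosen by this contrast, nothing is read from it. Past 2-fold stood Myc alone, against 7.94% of all genes lower and 6.98% higher. The median ratio was 0.01 over the members and 0.02 over all genes. In WT the order of the levels was Mycn, Myc, Max, Mga, Mnt, Mlx, Mxd4 and Mxi1. In KO it was Mycn, Mga, Max, Myc, Mnt, Mlx, Mxd4 and Mxi1, so that Myc stood below Max and Mga there. The counting intervals of neighbours in this order overlapped in WT between Mnt and Mlx, Mlx and Mxd4, and Mxd4 and Mxi1, and in KO between none. The variance of the thinned counts was 2.51 to 7.22 times their mean over the 8 genes and both genotypes, where Poisson counting alone gives equality, so the spread between cells was wider than the counting intervals show.

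**Figure D4:**
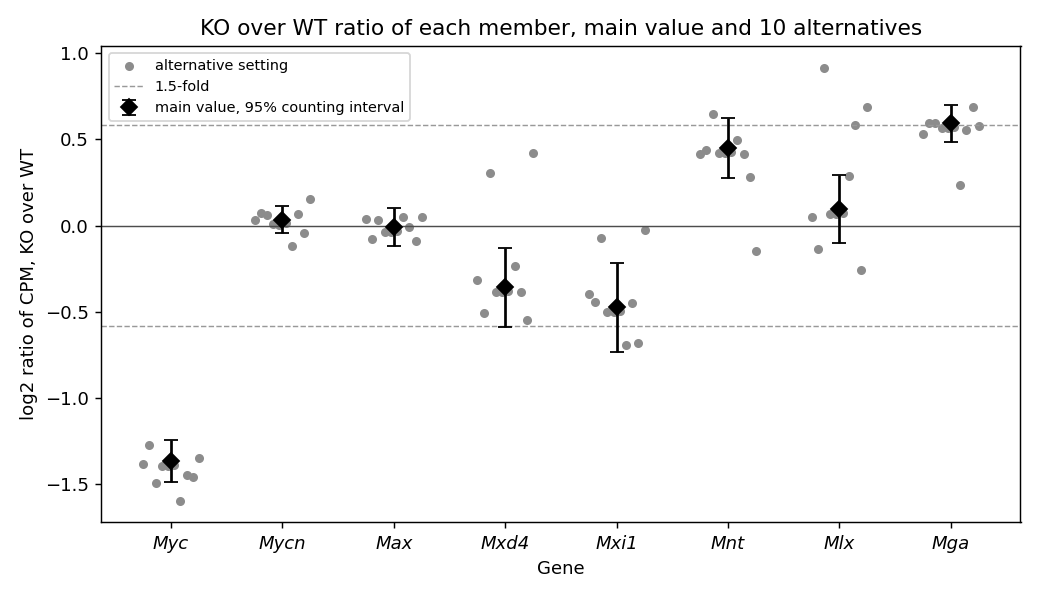
The log2 KO over WT ratio of each member: black diamonds are the main values with 95% counting intervals, grey points are 10 alternative settings of cells or scaling (the mean over cells of a log value, which has another scale, is not drawn), and dashed lines mark 1.5-fold. The drawn settings of Myc lie between -1.60 and -1.27, whereas those of Mlx reach from -0.26 to 0.92 and those of Mxd4 from -0.55 to 0.42.

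The genes whose pattern over cells was most like that of Myc were weakly related to it. Among 4791 genes with a UMI in at least 20% of the thinned cells of each genotype, the highest mean Spearman's rho of the genotypes belonged to Sdhaf1 (0.171), Rabl6 (0.157), Rpl8 (0.153), Plxnc1 (0.153) and Eif4a1 (0.146), over 259 WT and 234 KO cells of 2 pools. Correlations of this size in sparse counts are no finding.

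Other genes of the network were near the median of all genes in the kept cells, but not all of them without the cells high in oocyte transcripts. Mxd1 was at 0.02 (317 and 242 UMIs), Mlxip, a Mondo partner of Mlx, at 0.23 (300 and 265 UMIs) and Mxd3 at 0.30 (181 and 168 UMIs), and all of their intervals included 0. These were 3 of 5 listed genes with a row, and none passed 1.5-fold. Without the cells high in oocyte transcripts Mxd1 was at 0.72, past 1.5-fold, Mxd3 at 0.55 and Mlxip at 0.06.

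Cofactors of Myc had a median ratio of 0.14 over 17 genes. Past 1.5-fold, 1 was lower and 4 higher (5.88% and 23.5%, against 15.5% and 17.2% of all genes). The highest were Trrap, a scaffold of histone acetyltransferase complexes, at 1.22 (270 and 474 UMIs), the acetyltransferase Kat5 at 0.96 (606 and 888 UMIs) and Zbtb17, which encodes the Myc partner Miz-1, at 0.85 (154 and 209 UMIs). The lowest were Paf1, an elongation factor subunit, at -0.76 (1068 and 474 UMIs), and Smarcb1 and Wdr5, both at -0.40. Co-repressors recruited by Mxd proteins had a median of 0.28 over 6 genes: Ncor1 was highest at 0.93 (1960 and 2809 UMIs), Hdac2 was lowest at -0.50 (1299 and 693 UMIs), and Sin3a was at 0.48. On the study's normalized values, where the median of all genes was -0.14, the median was -0.30 for the cofactors, with 3 lower and 2 higher, and -0.22 for the co-repressors, with none past 1.5-fold, so neither list had a stable direction.

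Polycomb partners of Mga did not follow Mga as a group. Their median was 0.06 over 8 genes. Past 1.5-fold, 1 was lower and 1 higher (12.5% each, against 15.5% and 17.2% of all genes). Pcgf6, the subunit that defines this Polycomb complex, was at -0.87 (499 and 206 UMIs), while the E3 ligase subunit Ring1 was at 0.88 (231 and 320 UMIs) and its paralog Rnf2 at 0.33. Ring1 was at 0.54 without the cells high in oocyte transcripts, which ends its call.

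Genes that control the stability of the Myc protein had a median of 0.08 over 16 of 17 listed genes, with 2 lower and 6 higher past 1.5-fold. The 37.5% that were higher stand against 17.2% of all genes. On the study's normalized values the median was -0.18, with the same counts past 1.5-fold. Highest were Pim1, a kinase that phosphorylates Myc, at 1.62 (282 and 655 UMIs), the phosphatase subunit Ppp2r5a at 1.5 (91 and 194 UMIs) and the deubiquitinase Usp36 at 1.41 (202 and 404 UMIs). Ppp2r5a was seen in only 11 WT and 28 KO cells, and was at 1.77 without its top cell in each pool. Lowest were Aurka at -1.19 (705 and 233 UMIs), Usp28 at -0.68 (159 and 75 UMIs) and Cip2a at -0.54 (289 and 150 UMIs). Aurka, at -0.76 without the cells high in oocyte transcripts, is also a mitotic kinase, and the G2 and M list had a median of -0.72. Whether the level of Aurka followed that list was not tested. Usp28 was at 0.13 without the cells high in oocyte transcripts, so its direction rested on them, and Cip2a was at -0.66, past 1.5-fold. Whether Myc protein differed was not measured.

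Known targets of Myc were mostly slightly lower in the KO pool, but few by much. Over 4 lists (ribosome biogenesis, metabolism, translation and folding, cell cycle) with 60 of 62 genes in the table, the median ratio was -0.33 against 0.02 for all genes, and 46 of 60 genes (76.7%) were below 0 against 48.1% of all genes. Past 1.5-fold stood 9 of 60 lower (15.0%) and 4 higher (6.67%), so the lower share was close to that of all genes. On the study's normalized values it was not: 22 of 60 targets (36.7%) were lower and 1 higher, against 19.3% of all genes lower. The summed level of the 4 lists was 16408 CPM in WT and 14213 CPM in KO, and single cells ran from 7201 to 28427 and from 7749 to 24796.

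The medians differed from list to list. Ribosome biogenesis genes had a median of -0.38, with 17 of 20 below 0, and translation and folding genes a median of -0.33, with 12 of 13 below 0 and none past 1.5-fold. Metabolic genes had a median of -0.23 over 19 of 20 listed genes, with 13 below 0. Cell cycle targets had a median of 0.09 over 8 of 9 listed genes. Past 1.5-fold, 2 were lower and 2 higher (25% each, against 15.5% and 17.2% of all genes).

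Among single targets, the lowest ratios were those of Cks2, a subunit of cyclin-dependent kinases, at -1.53 (4796 and 1253 UMIs), the ribosome assembly genes Rrp12 at -1.44 (151 and 42 UMIs), Ppan at -0.89 (2560 and 1041 UMIs) and Nop16 at -0.69 (2570 and 1199 UMIs), the mitochondrial one-carbon enzyme Shmt2 at -0.71 (2286 and 1056 UMIs) and Cdca7 at -0.70 (2672 and 1239 UMIs). Cks2 was at -1.0 and Tfrc, described next, at 0.44, under 1.5-fold, without the cells high in oocyte transcripts. The highest were the phosphatase Cdc25a at 0.90 (357 and 503 UMIs), Rrp9 at 0.79 (761 and 990 UMIs), cyclin E1 (Ccne1) at 0.64 (117 and 137 UMIs), the transferrin receptor Tfrc at 0.59 (249 and 282 UMIs), pyruvate kinase Pkm at 0.44 (14564 and 14890 UMIs) and cyclin D2 (Ccnd2) at 0.39 (22898 and 22584 UMIs). Rrp9 was at 0.36 without its top cell in each pool and at -0.24 on the study's normalized values, so its direction was not stable.

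Genes that Myc is known to repress had a median on the other side of that of all genes, though 2 of the 6 were below 0. Over 6 of 8 listed genes the median ratio was 0.50, with 3 higher and none lower past 1.5-fold. The 50% that were higher stand against 17.2% of all genes, in a list of only 6. The 3 were the inhibitors of cyclin-dependent kinases Cdkn1b (p27) at 0.86 (597 and 816 UMIs), Cdkn1a (p21) at 0.73 (510 and 638 UMIs) and Cdkn2c (p18) at 0.67 (231 and 276 UMIs). Gadd45a, a stress gene of the same list, was at -0.47 (169 and 92 UMIs), and the differentiation gene Ndrg1 was at -0.07. Without the cells high in oocyte transcripts Cdkn1a was at 1.48 and Cdkn2c at 0.55, under 1.5-fold. On the study's normalized values the median was 0.15 and 1 gene passed 1.5-fold. In the cells with few mitotic transcripts the median was 0.27, with 2 genes higher and 1 lower past 1.5-fold.

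Myc is itself an immediate early gene, a class that is transcribed within minutes of a stimulus without new protein synthesis. Over 21 of 25 listed genes of this class other than Myc, the median ratio was 1.0, with 13 higher and 2 lower past 1.5-fold, which is part of how the 8 genes were chosen and is no independent observation. The highest were Fosb at 3.11 (37 and 241 UMIs), Klf2 at 1.83 (41 and 110 UMIs) and Fos at 1.65 (2366 and 5589 UMIs). For Klf2 a single WT cell held 34 of the 41 UMIs and a single KO cell 39 of the 110. Without its top cell in each pool Klf2 was at 3.75, so the size of its ratio rested on few cells. The 2 lower genes were Egr1 at -1.39 (472 and 136 UMIs) and Maff at -1.24 (200 and 64 UMIs), so Myc, at -1.37, had the direction of these and not of the list's median. Rhob, the next lowest, was at -0.29 with an interval that included 0.

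**Figure D5:**
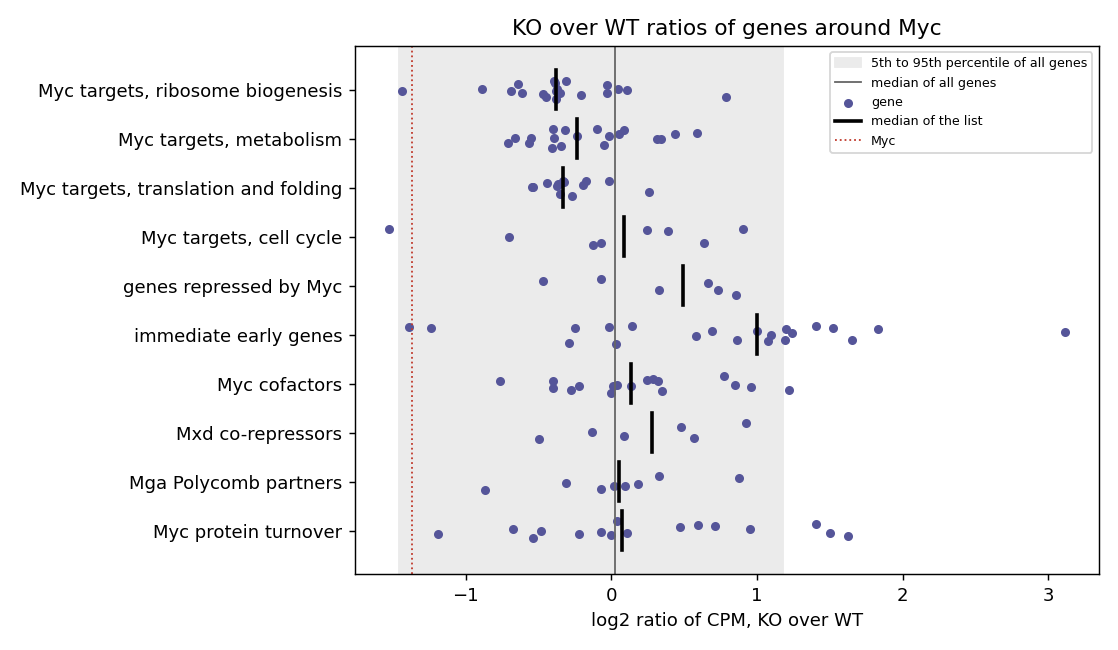
The log2 KO over WT ratio of each gene (points) in 10 lists around Myc, with the median of each list (black bars), the median of all genes (grey line), the 5th to 95th percentile of all genes (-1.46 to 1.18, grey band) and Myc (red dotted line). Of the 4 target lists, 3 lie left of the median of all genes, at -0.38, -0.23 and -0.33, and the median of immediate early genes lies right of it, at 1.0, with 5 of their 21 genes below 0 and Egr1 and Maff near Myc.

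Cell cycle lists moved beside these values and their part in the Myc targets was not tested. The median of 20 genes of the G2 and M phases was -0.72, the list summed to 1440 CPM in WT and 927 CPM in KO, and per cell it ran from 0 to 14581 CPM (median 233) and from 0 to 15226 CPM (median 112). The median of 21 S phase genes was -0.09. Past 1.5-fold, 2 were lower (9.52%, against 15.5% of all genes) and none higher (against 17.2%). In the cells with few mitotic transcripts the target median was -0.31 and the Myc ratio -1.35, against -0.33 and -1.37 in all kept cells. The division did not make the genotypes equal in mitotic transcripts. In these cells the G2 and M median was still -0.60, with 10 genes lower (50%, against 19.2% of all genes) and 1 higher past 1.5-fold.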

How the data were processed

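Single cells were sequenced by the study in 8 libraries with barcoded oligo-dT primers and UMIs; reads were de-duplicated by UMI and counted on the mm9 transcriptome, per the study's methods and the submitters' processing notes. The aligner and the normalization method are not given in the sources used here. The values were deposited by the authors on a log2 scale, as log2 of a cell's scaled UMIs plus 1, for 10720 genes with an average above 0.2 in 586 cells. Because each value is a whole multiple of its cell's smallest step, UMIs were recovered; 100% of the values came out whole within 0.01. The study's stated limits of 2000 genes and 20000 UMIs, applied to the genes of the table, left 493 of the 586 cells.

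UMIs were summed over the cells of a genotype. Ratios carry exact conditional binomial (Clopper-Pearson) intervals, CPM levels have Poisson limits, and the percentages of cells binomial limits, each exact, at 95% and for counting error only; UMIs of a gene cluster in cells. For shares, each cell was thinned to 20000 UMIs with a fixed seed. With 1 pool per genotype there was no test and no p-value, and "past 1.5-fold" is a rule of size. Cells were picked by hand and no doublet caller was run. The scripts were tested on simulated data.

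The members and the gene lists were chosen with earlier results of these data known. Named beside the members were, per list described, up to 3 genes with the highest and 3 with the lowest ratio among those with 100 UMIs or more (6 each over the target lists together), and the 5 genes most like Myc. Cip2a was matched under its older symbol. The alternatives were other cell limits, thinning, median-of-ratios, trimmed-mean (TMM) and upper-quartile scaling, the study's normalized values, a mean over cells of log2(CPM/100 + 1), leaving out the top cell of each gene or the cells with over 1000 CPM of oocyte genes, and, added after seeing the data, only cells at or below the median of G2 and M transcripts. Promoters were RefSeq's, build GRCm38.p6. Python 3.11.15, numpy 2.4.6, scipy 1.17.1, pandas 2.3.3 and matplotlib 3.10.9 were used.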

Additional observations from a re-analysis of the deposited data

How the results depend on the processing

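Myc was lower in KO, and the share of cells with Myc lower, under every alternative run. The Myc ratio of -1.37 was -1.49 after thinning, -1.60 on the study's normalized values and -0.45 as a mean over cells of log2(CPM/100 + 1), a compressed scale. The count of 2 members past 1.5-fold was 1 with every cell, with median-of-ratios, TMM or upper-quartile scaling, with each gene's top cell left out and past 2-fold, 3 without the cells high in oocyte transcripts, where Mxi1 joined, 4 after thinning and 0 as a mean over cells; Mga lies next to the threshold. The target median of -0.33 was -0.52 on the normalized values and -0.11 as a mean over cells. On the normalized values the median of all genes was -0.14, and 2070 genes were lower and 1104 higher past 1.5-fold, against 1661 and 1849 otherwise. The other scalings moved all ratios by -0.03 to -0.02. Leaving aside the mean over cells, which has another scale and put the members other than Myc between -0.02 and 0.14, Mycn ranged from -0.12 to 0.16, Max from -0.09 to 0.05, Mxd4 from -0.55 to 0.42, Mxi1 from -0.69 to -0.02, Mnt from -0.15 to 0.65, Mlx from -0.26 to 0.92 and Mga from 0.24 to 0.69. The cause of these changes was not tested.

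No paired analysis was possible because a cell's column gives its genotype and no library, and for the same reason leaving out each library was not run. Genes with few positive cells (Mxd4, Mxi1, Mnt and Mlx) are limited by cells, not by UMIs.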

Other observations

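Markers of other cell types were counted in the same pools, as ratios of KO over WT past 1.5-fold. Of all genes, 15.5% were lower and 17.2% higher past it. Only genes with an average above 0.2 over all cells had a row. Some markers passed through a single genotype, such as Col1a1 (345 WT and 4 KO UMIs) and Car1 (3 and 989 UMIs). The direction of such genes was partly fixed by this limit, so nothing is read from the counts. Of granulocyte-macrophage genes, 3 of 11 had a row and all 3 were higher; of erythroid genes, 5 of 8 had a row, 3 lower and 1 higher; of megakaryocyte genes, 7 of 7, 2 lower and 2 higher; of stroma and endothelium genes, 6 of 9, 4 lower and 2 higher; of neutrophil genes, 2 of 7, both lower; of lymphoid genes, 2 of 10, 1 higher; and of macrophage genes, 1 of 6, which was higher. The summed levels in WT and KO were 113 and 347 CPM for granulocyte-macrophage, 1529 and 1176 CPM for erythroid and 81.8 and 102 CPM for stroma and endothelium genes. Without the cells high in oocyte transcripts, 2 stroma and endothelium genes were lower and 3 higher past 1.5-fold. The erythroid gene that was higher was Car1, with 955 of its 989 KO UMIs in 1 cell. The part of these cell type markers in the levels of the Myc network was not tested.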
